A study of Mus musculus with 18 samples.

Results

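A cluster of KRAB zinc finger genes lies near the distal end of mouse chromosome 4, and the sites described here are the CpGs of 1 window there (GRCm38) that were covered by at least 10 reads in both the BPA and the control pool of a tissue. They were chosen by position and read depth, and the region was picked out after treatment differences in these data had been seen. There were 2179 such CpGs in gonadal adipose (of 1876099 that passed the same depth filter in the whole table), 1698 in liver (of 1628817) and 1830 in hypothalamus (of 1569349). Together they formed 2194 positions, of which 1615 were measured in all 3 tissues, 283 in 2 and 296 in 1. At the depth limit in adipose, the 22 CpGs with exactly 10 reads in the shallower pool had median levels of 80% in the BPA pool and 85% in the control pool, and the 16 CpGs left out with 9 reads had medians of 78.3% and 77.8%, in the same order of pools. At the edges of the window, the first CpG in adipose, in Vps13d at 145034755, had 4.0% in the BPA pool and 5.56% in the control pool, and the last, at 147669953, had 86.9% and 88.6%. The nearest CpG before the window, at 144969758, had 94.8% and 98.0%, and the nearest after it, at 147723646, had 88.8% and 91.8%.

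The study asked whether exposure to bisphenol A (BPA), a building block of polycarbonate plastic with oestrogen-like activity, before birth changes DNA methylation in metabolic tissues of the offspring. Pregnant inbred C57BL/6 females received BPA in corn oil by oral gavage at 5 mg/kg/day, daily on days 1 to 20 after conception, or corn oil alone, and gonadal adipose, liver and hypothalamus were taken from male offspring at 3 weeks. The groups are BPA adipose, BPA liver and BPA hypothalamus, from 4 litters in all, and control adipose, control liver and control hypothalamus, from 3 litters in all, with 3 samples in each of the 6 groups. The assay was RRBS (reduced representation bisulfite sequencing): MspI cuts DNA at CCGG, size-selected fragments are treated with bisulfite, and a cytosine that still reads as C is scored as methylated. All mice were of the same strain, kept before mating on a diet low in oestrogenic isoflavones, and the offspring of both treatments ate standard chow. The labels do not say which animal or litter gave which sample. The deposited tables hold 1 pool per group and no values of single animals. No spread between animals could therefore be computed, and every p-value and 95% interval below covers counting error over pooled reads only. These reads carry no molecular identifiers, so PCR copies of a molecule count as separate reads. The pools are numbered 0 and 1 in the tables. They were read as control and BPA from the order of the group names in the labels, and if that order were reversed the direction of every treatment difference below would turn round and the pools compared between tissues would be those of BPA.

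KRAB zinc finger proteins are DNA-binding repressors whose zinc fingers read a sequence, often in a retrotransposon, and whose KRAB domain recruits TRIM28. TRIM28 in turn brings the histone methyltransferase SETDB1, HP1 proteins and DNA methyltransferases, and the bound sequence is silenced. The genes arise by tandem duplication and stand in large clusters full of pseudogenes and repeats. RefSeq (GRCm38.p6) places 80 gene models in the window: 20 protein-coding genes, 47 pseudogenes, 5 transcribed pseudogenes and 8 lncRNAs. Of the 14 models with a Zfp symbol, 10 held a measured CpG, as did 46 of all 80. The window begins with genes of other families: Vps13d, a lipid transfer protein, Tnfrsf1b, a receptor for tumour necrosis factor, and Tnfrsf8, the CD30 receptor, whose end lies at 145315164. The zinc finger genes and the Vmn2r pseudogenes, remnants of vomeronasal receptor genes, lie past that point. Between 81.6% (adipose) and 83.2% (liver) of the CpGs lay inside a gene body.

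The zinc finger gene starts listed in the RefSeq promoter table were nearly out of reach of the assay. The RefSeq promoter table (250 bases before to 50 after each start) holds 28 windows of 20 genes here, and 7 of them, or 25%, contain CCGG, the MspI site, against 52.8% of all 32851 windows in the table. CCGG reads the same on both strands. The 13 windows of 10 zinc finger genes (the Zfp symbols and Rex2) had a median of 4 CpGs, against 7 over all windows, and 1 of them held measured CpGs. This was a Zfp982 window at chr4:147442864-147443163 on the + strand, where 15 of 16 CpGs were measured. The other measured start shown is that of the lncRNA Gm13165 at chr4:146239954-146240253 on the − strand, with 17 of 18 CpGs. The windows of Zfp600 (chr4:146156577-146156876, + strand), Rex2 (chr4:147021600-147021899, + strand) and Zfp979 (chr4:147642459-147642758, − strand) are shown because they stand for the unmeasured starts and for how alike these genes are. Zfp600 and Rex2 share an unbroken run of 285 bases, Rex2 and Zfp979 one of 102 bases. Of 74 pairs of windows from different zinc finger genes, 21 share a run of at least 40 bases. CpGs are in capitals, and each sequence runs 5′ to 3′ on the strand of its gene.
Zfp982: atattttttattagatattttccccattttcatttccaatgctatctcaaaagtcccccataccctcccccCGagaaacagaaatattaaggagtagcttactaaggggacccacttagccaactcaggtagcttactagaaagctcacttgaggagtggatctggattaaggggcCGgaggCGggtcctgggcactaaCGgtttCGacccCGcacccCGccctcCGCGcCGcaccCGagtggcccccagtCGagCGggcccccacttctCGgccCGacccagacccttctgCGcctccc
Gm13165: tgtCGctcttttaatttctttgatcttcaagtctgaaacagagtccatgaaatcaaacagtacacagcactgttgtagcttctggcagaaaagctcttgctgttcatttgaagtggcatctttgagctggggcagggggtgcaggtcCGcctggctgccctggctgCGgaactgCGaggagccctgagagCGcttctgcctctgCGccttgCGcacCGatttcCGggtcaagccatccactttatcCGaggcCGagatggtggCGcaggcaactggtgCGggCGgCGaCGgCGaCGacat
Zfp600: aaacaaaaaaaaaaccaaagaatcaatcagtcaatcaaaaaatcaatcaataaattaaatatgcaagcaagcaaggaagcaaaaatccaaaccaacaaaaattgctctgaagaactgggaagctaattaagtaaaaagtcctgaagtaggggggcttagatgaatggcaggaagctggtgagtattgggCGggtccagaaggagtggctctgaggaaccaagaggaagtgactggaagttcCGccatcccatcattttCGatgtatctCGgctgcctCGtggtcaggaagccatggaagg
Rex2: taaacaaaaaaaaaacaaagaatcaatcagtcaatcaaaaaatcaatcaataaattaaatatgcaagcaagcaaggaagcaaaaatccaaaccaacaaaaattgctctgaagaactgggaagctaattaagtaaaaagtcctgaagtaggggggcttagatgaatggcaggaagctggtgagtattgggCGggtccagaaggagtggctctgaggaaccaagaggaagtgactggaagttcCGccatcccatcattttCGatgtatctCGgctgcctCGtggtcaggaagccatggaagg
Zfp979: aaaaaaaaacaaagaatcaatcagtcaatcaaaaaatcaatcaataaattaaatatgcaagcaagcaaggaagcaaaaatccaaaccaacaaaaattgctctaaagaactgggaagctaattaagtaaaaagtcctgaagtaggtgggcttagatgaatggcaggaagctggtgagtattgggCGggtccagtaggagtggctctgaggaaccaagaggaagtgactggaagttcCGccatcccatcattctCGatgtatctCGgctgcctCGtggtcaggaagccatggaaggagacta

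Where a start was measured, it was low in methylation in every pool. The 15 CpGs of the Zfp982 window averaged 2.24% in the BPA pool and 1.95% in the control pool of adipose, 4.52% and 4.72% in liver, and 2.09% and 1.67% in hypothalamus, with BPA first in each pair. Their depth ran between 135 and 516 reads across the BPA pools, and the first of them, 177 bases into the window, was the highest in the BPA and control pools of adipose (10.1% and 10.3%) and hypothalamus (6.21% and 6.01%). The 17 CpGs of the Gm13165 window averaged 7.93% (BPA) and 6.76% (control) in adipose, 9.65% and 8.95% in liver, and 6.39% and 6.14% in hypothalamus. Their depth in BPA liver ran between 10 and 155 reads. This window lies inside the pseudogene Gm13169, whose distances between CpGs recur in Gm13244 and Gm13233, so the placement of its reads is uncertain. The promoter table gives no start in the window for Zfp978, Zfp990, Zfp991, Zfp992 or Zfp534. Over all CpGs within 1 kb of a start that it does give, the mean was 8.8% in BPA adipose and 8.9% in control adipose (202 CpGs). It was 7.85% and 7.95% in liver (162), and 6.79% and 5.85% in hypothalamus (182). The 5 promoter windows with measured CpGs include those of Vps13d, Tnfrsf1b and Tnfrsf8, genes of other families. These means therefore do not describe zinc finger starts alone. The CpGs farther away averaged 57.8% in BPA adipose and 57.5% in control adipose. No CpG within 1 kb of a start given there was called between BPA and control in the tables of adipose, liver or hypothalamus. Over all CpGs 0.535%, 0.0259% and 0.00599% were called, in the same order of tissues. With so few CpGs near a start, the absence of calls says little about starts. It also leaves out 147124861, called in adipose just below the lower end of the Zfp978 model.

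The cluster as a whole had a mean level close to that of all CpGs, but more sites of intermediate methylation. The mean over its CpGs was 53.2% in BPA adipose and 53.0% in control adipose, 53.7% and 53.4% in liver, and 52.7% and 51.7% in hypothalamus, while all tested CpGs averaged between 50.1% and 50.6% in the 6 pools. CpGs between 20% and 80% made up 30.1% of the cluster in both adipose pools, 33.9% (BPA) and 32.3% (control) in liver, and 27.1% and 26.6% in hypothalamus. Over all tested CpGs the same class held 22.3% and 22.2% in adipose, 22.3% and 22.0% in liver, and 18.6% and 18.4% in hypothalamus. The zinc finger clusters on chromosomes 13 and 2 also held more sites of this class than all CpGs did, with 29.6% and 25.9% in BPA liver and 28.6% and 27.3% in control liver, in the order of chromosomes 13 and 2. Very deep sites were also more frequent: 2.16% of cluster CpGs in BPA adipose and 1.74% in control adipose had at least 1000 reads, against 0.709% and 0.619% of all CpGs. The median depth of cluster CpGs lay between 83 reads (control hypothalamus) and 150 reads (BPA adipose).

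**Figure D1:**
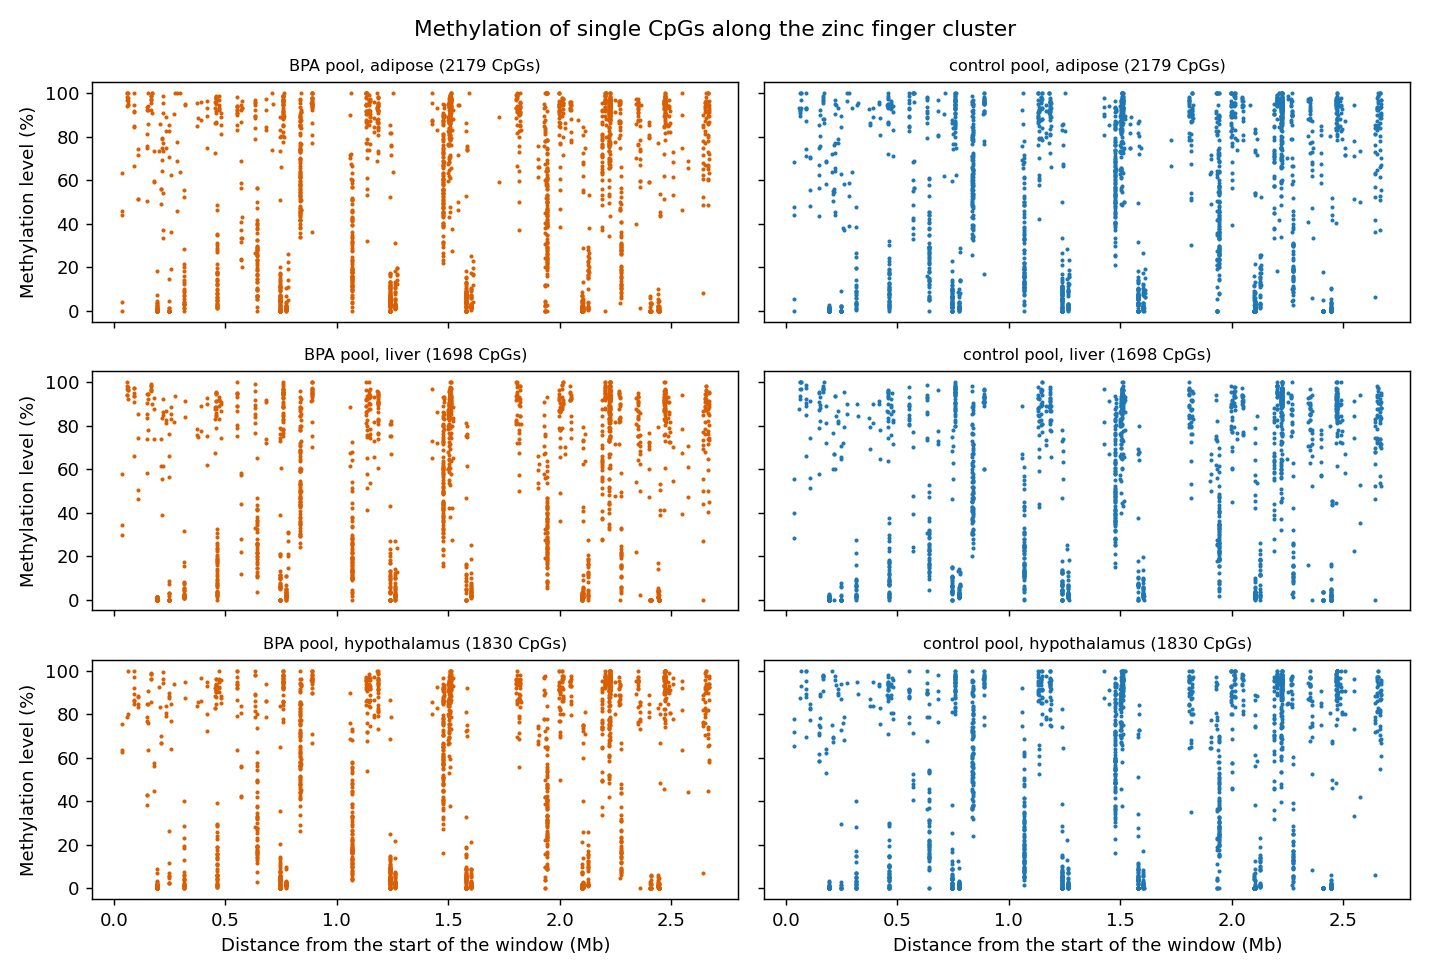
Methylation level in percent (vertical axis) of every cluster CpG against its distance from the start of the window in Mb (horizontal axis), with BPA pools on the left, control pools on the right, and a row per tissue. Each point is 1 CpG. CpGs stand in dense columns where MspI fragments were read, and the columns that stay near 0% or span the intermediate range do so at the same places in all 6 pools.

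Levels differed widely between gene models. Among the 33 models with at least 5 CpGs measured in all tissues, control liver means ran between 2.88% (Gm13161, a pseudogene that overlaps the start of Zfp982) and 87.9% (Gm13158, also a pseudogene). The bodies of zinc finger genes were mostly highly methylated. Zfp600 averaged 89.4% in BPA adipose and 89.3% in control adipose over 29 CpGs, Rex2 87.4% and 88.3% over 49, and Zfp981 88.5% and 87.4% over 109. Zfp978, whose model spans 267146 bp (147124882 to 147392027) and encloses several pseudogenes, averaged 74.3% in BPA adipose and 74.4% in control adipose over 262 CpGs, 70.6% and 70.9% in liver, and 74.5% and 74.2% in hypothalamus. Zfp993, whose 478623 bp model overlaps Zfp981 and encloses Gm20760 and Gm13140, averaged 44.5% (BPA) and 43.7% (control) in adipose, 40.2% and 39.2% in liver, and 43.9% and 42.6% in hypothalamus, over 181 CpGs. Zfp982 averaged 69.7% and 69.8% in adipose over 97 CpGs.

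Several short pseudogenes were low over their measured CpGs, all of which lay toward the lower-coordinate end of the model. Gm13243, Gm13240 and Gm13161, of 1005, 1012 and 1008 bp, averaged 2.0%, 5.15% and 1.63% in BPA adipose and 2.55%, 4.88% and 1.83% in control adipose, over 30, 30 and 31 CpGs. Gm13142, with 49 CpGs, averaged 8.89% in BPA adipose and 9.05% in control adipose. The measured CpGs spanned 328, 335, 326 and 695 bp of these models, in the order Gm13243, Gm13240, Gm13161 and Gm13142. The Vmn2r pseudogene models are long and mixed: Vmn2r-ps16 averaged 63.6% in both adipose pools over 264 CpGs, Vmn2r-ps17 47.0% (BPA) and 47.3% (control) over 138, and Vmn2r-ps15 37.5% and 37.4% over 102.

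Many of the short models repeat the CpG spacing of another and may be copies, which would matter for where a read was placed. Among 16 models of at most 5 kb with at least 20 CpGs, 120 pairs were compared by the distances between their CpGs, a comparison added after the data were seen. In 10 pairs at least 80% of the CpGs of the smaller model had the same spacing in the other. Gm13244 and Gm13169 shared all 39 of their CpGs in spacing, and both shared all 39 with Gm13233. At those CpGs they averaged 11.1%, 11.1% and 10.8% in control adipose, over 39 CpGs each, with a median absolute difference between 3.03 and 3.8 percentage points. Smarca5-ps, a transcribed pseudogene of a chromatin remodeller, shared 22 of its 23 CpGs with Gm13231 and 22 with Gm13034. Gm13238, Gm13241 and Gm13146 formed another family, in which Gm13238 shared 28 of its 31 CpGs with Gm13146 and 26 with Gm13241. Gm20760 is grouped with them here, though the 17 of its 24 CpGs shared with Gm13241 (70.8%) fall short of 80%. The sources used here do not say how reads with several equally good positions were handled, so values of single members of such families are uncertain.

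Differences between tissues were tested with Fisher's exact test on the reads of the control pools, adjusted by the Benjamini-Hochberg method over all CpGs with at least 10 reads in both, and a CpG was called at an adjusted p under 0.05 and a difference of at least 5 percentage points. In the cluster, calls against liver leaned to lower levels in liver. Of 1735 cluster CpGs, 225 were called higher in adipose than in liver, or 13.0%, against a background of 8.06% of all CpGs, and 20 were called lower, or 1.15%, against 8.42%. The mean over the same CpGs was 55.8% in control adipose and 53.0% in control liver, a mean difference of 2.85 percentage points, where all CpGs had −0.0837. Between liver and hypothalamus, 11 of 1664 were called higher in liver (0.661%, background 5.72%) and 152 lower (9.13%, below the background of 11.2%), with means of 52.8% in liver and 55.4% in hypothalamus and a mean difference of −2.65 points, where all CpGs had −1.93. Of 1658 cluster CpGs tested in both pairs, 100 were called lower in liver against both other tissues, or 6.03%, where 4.97% of all CpGs were. Adipose and hypothalamus differed at few sites: 23 of 1844 CpGs were called higher in adipose (background 3.79%) and 27 lower (background 9.08%), 2.71% together, where 12.9% of all CpGs were called. The tissues were analysed in bulk, so a different mix of cells and a different level within cells cannot be told apart.

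In the BPA pools, 209 CpGs were called higher in adipose than in liver (background 7.44%) and 20 lower (background 8.34%). Between liver and hypothalamus 14 were higher (background 5.63%) and 167 lower (background 11.1%) in liver. Between adipose and hypothalamus 42 were higher (background 3.89%) and 45 lower (background 9.48%) in adipose. In the 2 other zinc finger clusters looked at, on chromosomes 2 and 13, more CpGs were called lower in liver than higher against adipose. On chromosome 13, 165 of 1710 CpGs were called higher (9.65%) and 12 lower (0.702%) in control adipose than in control liver. On chromosome 2, 60 of 774 were higher (7.75%) and 26 lower (3.36%), both below the backgrounds of 8.06% and 8.42%. The mean difference, control adipose minus control liver, was 3.24 points on chromosome 13 and 2.96 on chromosome 2, against 2.85 in the chromosome 4 cluster. The BPA pools had 136 higher (8.01%) and 17 lower (1%) on chromosome 13, and 35 (4.7%) and 28 (3.76%) on chromosome 2. Between control adipose and control hypothalamus, 4.04% were called on chromosome 13 (34 higher and 30 lower in adipose). On chromosome 2 it was 5.32% (2 higher and 40 lower), where 12.9% of all CpGs were called. Control liver against control hypothalamus gave 15 higher (0.95%) and 155 lower (9.82%) in liver on chromosome 13. On chromosome 2 it gave 8 (1.1%) and 59 (8.09%), with backgrounds of 5.72% and 11.2%. The mean differences, liver minus hypothalamus, were −3.36 points on chromosome 13 and −5.73 on chromosome 2, against −2.65 in the chromosome 4 cluster. Within the window the small share of calls between adipose and hypothalamus held past the end of Tnfrsf8, where 22 of 1718 CpGs were called higher and 14 lower in adipose (2.1% together), whereas in the stretch of Vps13d, Tnfrsf1b and Tnfrsf8 1 of 126 was called higher and 13 lower (11.1% together). This split was chosen after the values were seen.

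**Figure D2:**
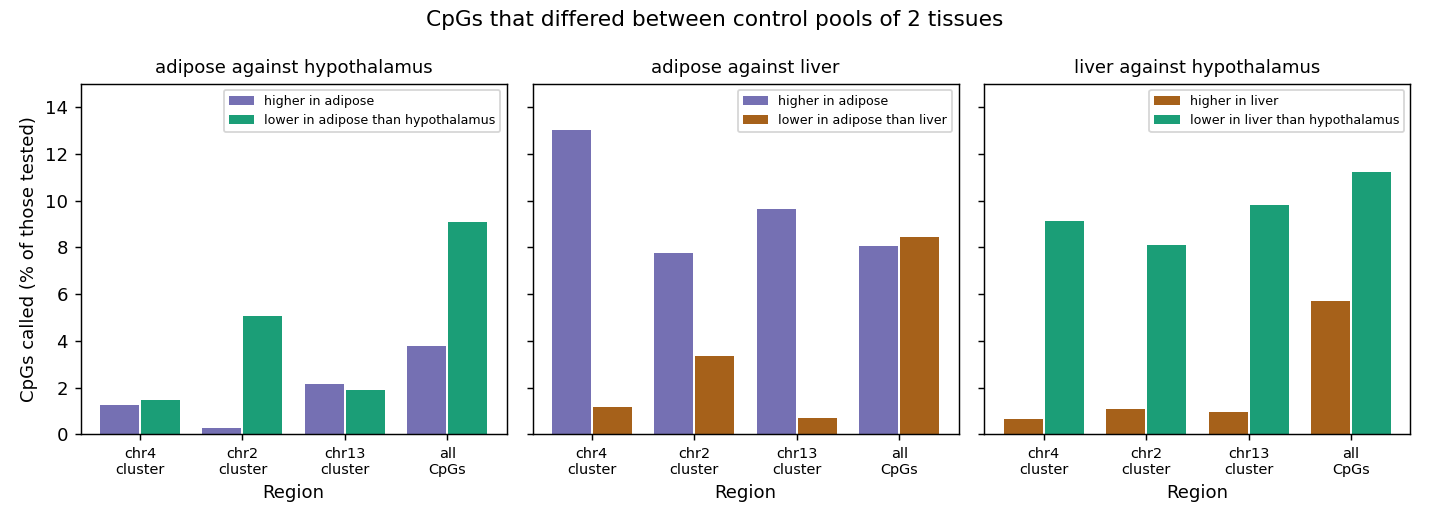
Percentage of tested CpGs called between control pools (vertical axis) in the chromosome 4 cluster, the 2 other zinc finger clusters and all CpGs, with a panel per pair of tissues and bars for calls higher and lower in the tissue named first. In the chromosome 4 cluster 13.0% were higher and 1.15% lower in adipose than in liver, while over all CpGs both directions stood near 8%.

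Many of the calls against liver lay in the Gm13241 family of pseudogenes. Gm13238 averaged 77.8% in control adipose, 65.5% in control liver and 76.7% in control hypothalamus over 25 CpGs, Gm13241 60.4%, 49.3% and 59.3% over 74, Gm20760 55.4%, 45.8% and 54.7% over 8, and Gm13146 69.8%, 61.4% and 70.9% over 26, in the same order of tissues. All 4 were lower in liver, and adipose and hypothalamus lay within 1.14 points of each other in each. The BPA pools gave 77.2%, 68.6% and 77.9% for Gm13238 and 58.9%, 51.1% and 61.2% for Gm13241. Over the 140 CpGs of these 4 models, 84 were called higher in adipose than in liver (60%) and none lower, which is 37.3% of all such calls in the cluster. Over the other 1595 CpGs 141 were higher and 20 lower, with a mean difference of 2.15 points, against 10.8 in the family. The family was singled out after its values were seen, and its members may share reads. Without all 13 models of repeated CpG spacing, 150 CpGs of the cluster were called between adipose and liver.

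The models of zinc finger genes, which enclose or overlap other gene models, had means of the same sign. Zfp978 was 3.48 points higher in adipose than in liver in the control pools, with 32 CpGs called higher and 1 lower, Zfp982 3.48 points (21 higher), Zfp993 4.44 points (24 higher, 2 lower), Zfp600 2.83 points (2 higher) and Zfp981 1.8 points (3 higher, 1 lower). Over their whole models, Zfp600 (2 of 29 CpGs) and Zfp981 (3 of 118) had shares called higher below the 8.06% of all CpGs. The shares of Zfp978, Zfp982 and Zfp993 lay above it. The CpGs outside all models without a Zfp symbol were also counted, a division added after the values were seen. There Zfp978 had 10 of 222 CpGs called higher and 1 lower, Zfp982 21 of 83 higher and Zfp993 14 of 76 higher. In this division the share called higher lay below that of all CpGs in Zfp978 and above it in Zfp982 and Zfp993. Zfp600 and Zfp981 had no CpG left. Over the 33 models, liver was below adipose in 25 and below hypothalamus in 21. Gm13140, which shares 38 of its 41 CpGs in spacing with Gm13034, averaged 34.5% in control adipose, 25.7% in control liver and 31.4% in control hypothalamus. In 8 models adipose was below liver. Gm46896 had 70.6% in control adipose, 77.6% in control liver and 74.9% in control hypothalamus over 10 CpGs, and Smarca5-ps had 15.7%, 17.3% and 12.5% over 23. Tnfrsf8 was higher in adipose (19.4%) than in liver (12.2%) and hypothalamus (14.6%), and Tnfrsf1b was higher in hypothalamus (58.4%) than in adipose (55.6%) and liver (52.4%).

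**Figure D3:**
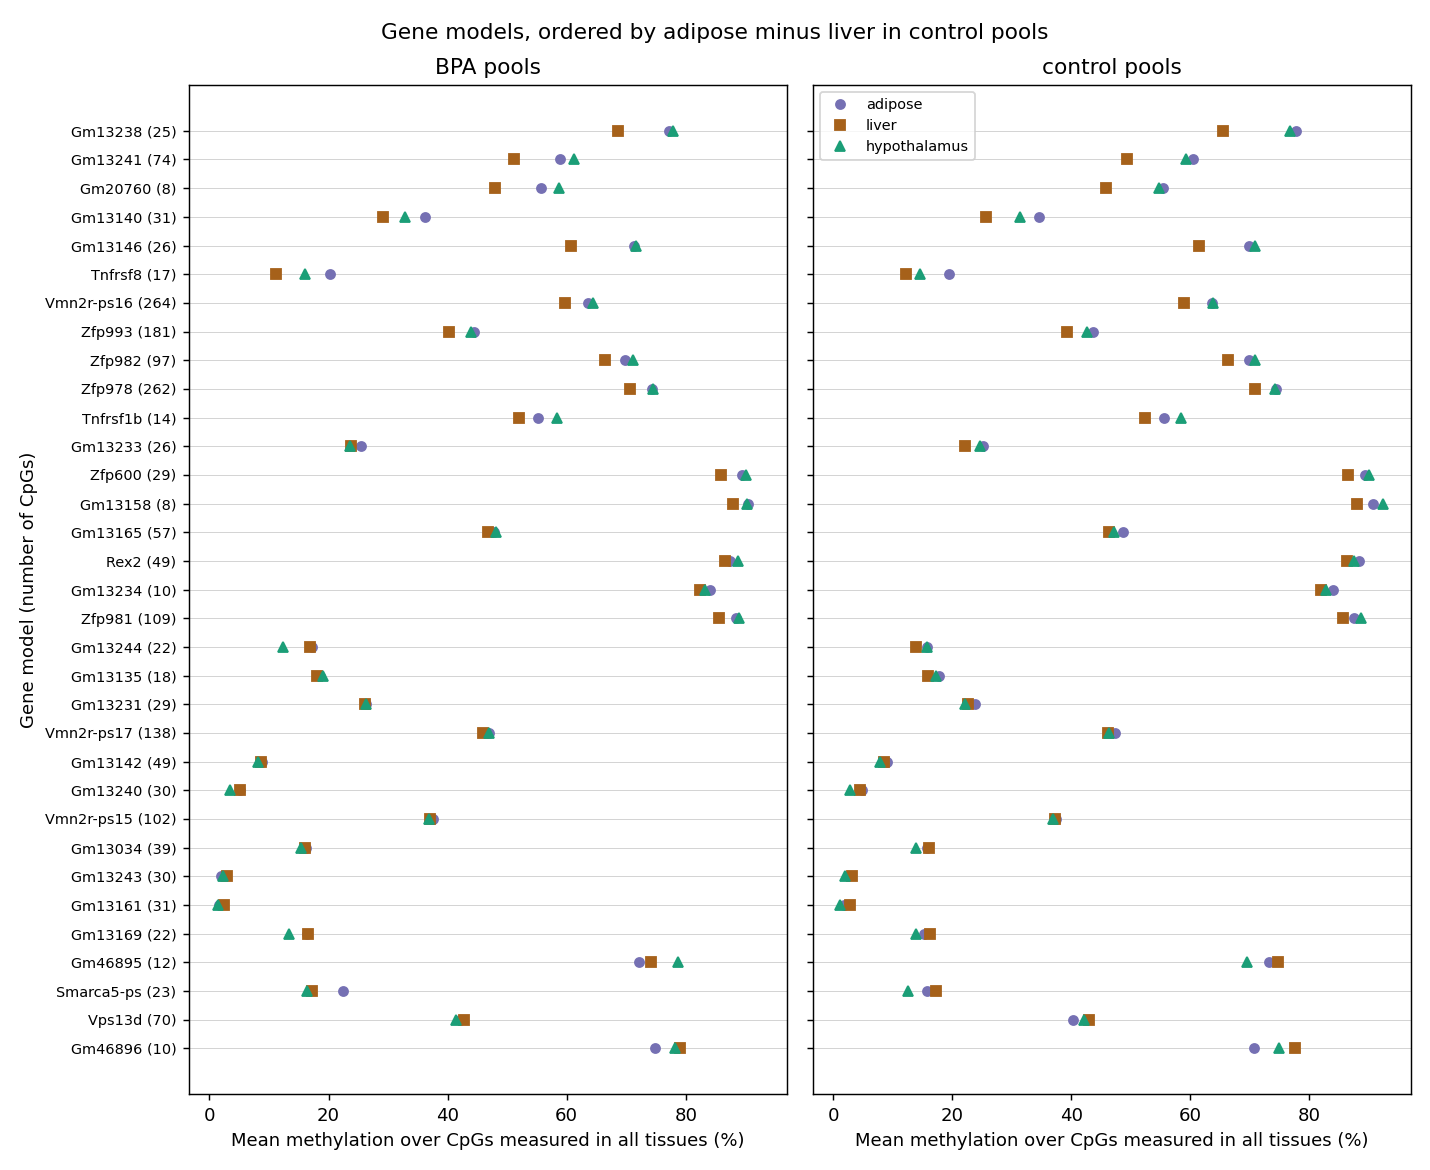
Mean methylation in percent (horizontal axis) of the 33 gene models with at least 5 CpGs measured in all tissues (vertical axis, with the number of CpGs), in BPA pools on the left and control pools on the right, 1 marker per tissue. Rows are ordered by the control difference, adipose minus liver. The squares of liver stand left of adipose and hypothalamus in the top rows, which include Gm13238, Gm13241, Gm20760 and Gm13146, and the 3 tissues nearly coincide in the lowest-methylated models.

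Most of the single CpGs with the largest tissue differences lay before the end of Tnfrsf8, outside the zinc finger genes. At 145035359 the level was 68.2% of 176 reads in control adipose, 28.4% of 176 reads in control liver and 77.9% of 113 reads in control hypothalamus. The difference was 39.8 points between adipose and liver (interval 29.7 to 48.7, adjusted p = 3.68e-12, Fisher's exact test) and −49.5 points between liver and hypothalamus (interval −58.5 to −38.4, adjusted p = 6.59e-15, Fisher's exact test). Liver stood apart from both other tissues there. At 145217882 in Tnfrsf1b adipose had 54.5% of 22 reads and liver 0% of 11 reads, and the interval of the difference ran between 21.9 and 73.1 points at this thin coverage. In Gm36233, 145258525 had 37.1% of 97 reads in adipose and 79.4% of 63 reads in liver, the reverse direction. Inside the zinc finger part, 147104580 within 5 kb of Gm13142 had 54.5% of 55 reads in liver and 88.9% of 36 reads in hypothalamus, and 146475552 in Gm13241 had 64.3% of 70 reads in adipose and 25% of 24 reads in liver. At 145109909 in Vps13d adipose had 48.2% of 305 reads and hypothalamus 77.5% of 213 reads.

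The calls against liver fell mainly on sites of intermediate methylation. Among CpGs at 20% to 80% in control liver, 159 of 562 were called higher in adipose (28.3%), with a mean difference of 6.61 points. Over all CpGs of that class 20.8% were called, with a mean of 1.67 points. Sites under 20% in liver gave 18 of 522 (3.45%, against 4.17% of all CpGs in the class) and sites over 80% gave 48 of 651 (7.37%, against 4.78%). Because the classes were cut on the liver value itself, they describe where the calls fell and test nothing.

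Between BPA and control, the same rule was applied to the deposited Fisher p-values, and the counts are given as a description, since treatment differences had led to the choice of the region. In adipose 12 of 2179 CpGs were called, 8 higher (background 0.252%) and 4 lower (background 0.283%) in the BPA pool, or 0.551%, close to the background of 0.535% of all CpGs called in adipose. Up to the end of Tnfrsf8, before the zinc finger genes, 3 of 159 were called (1.89%), all higher. Past it 9 of 2020 were called (0.446%, below that background), 5 higher and 4 lower. The split was chosen after the values were seen. In liver 4 of 1698 were called, 3 higher (background 0.0181%) and 1 lower (background 0.0078%), or 0.236%, where the background was 0.0259%. In hypothalamus none of 1830 was called by Fisher's exact test, where the background was 0.00599%, with 0.00299% in each direction. There 65 CpGs had an unadjusted p under 0.05, or 3.55%, against 3.41% of all CpGs. Bonferroni adjustment left no called CpG in adipose or liver. Neither did scaling the p-values by the excess of the squared difference between pools over counting error, which averaged 1.91 in adipose and 1.18 in liver and hypothalamus.

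**Figure D4:**
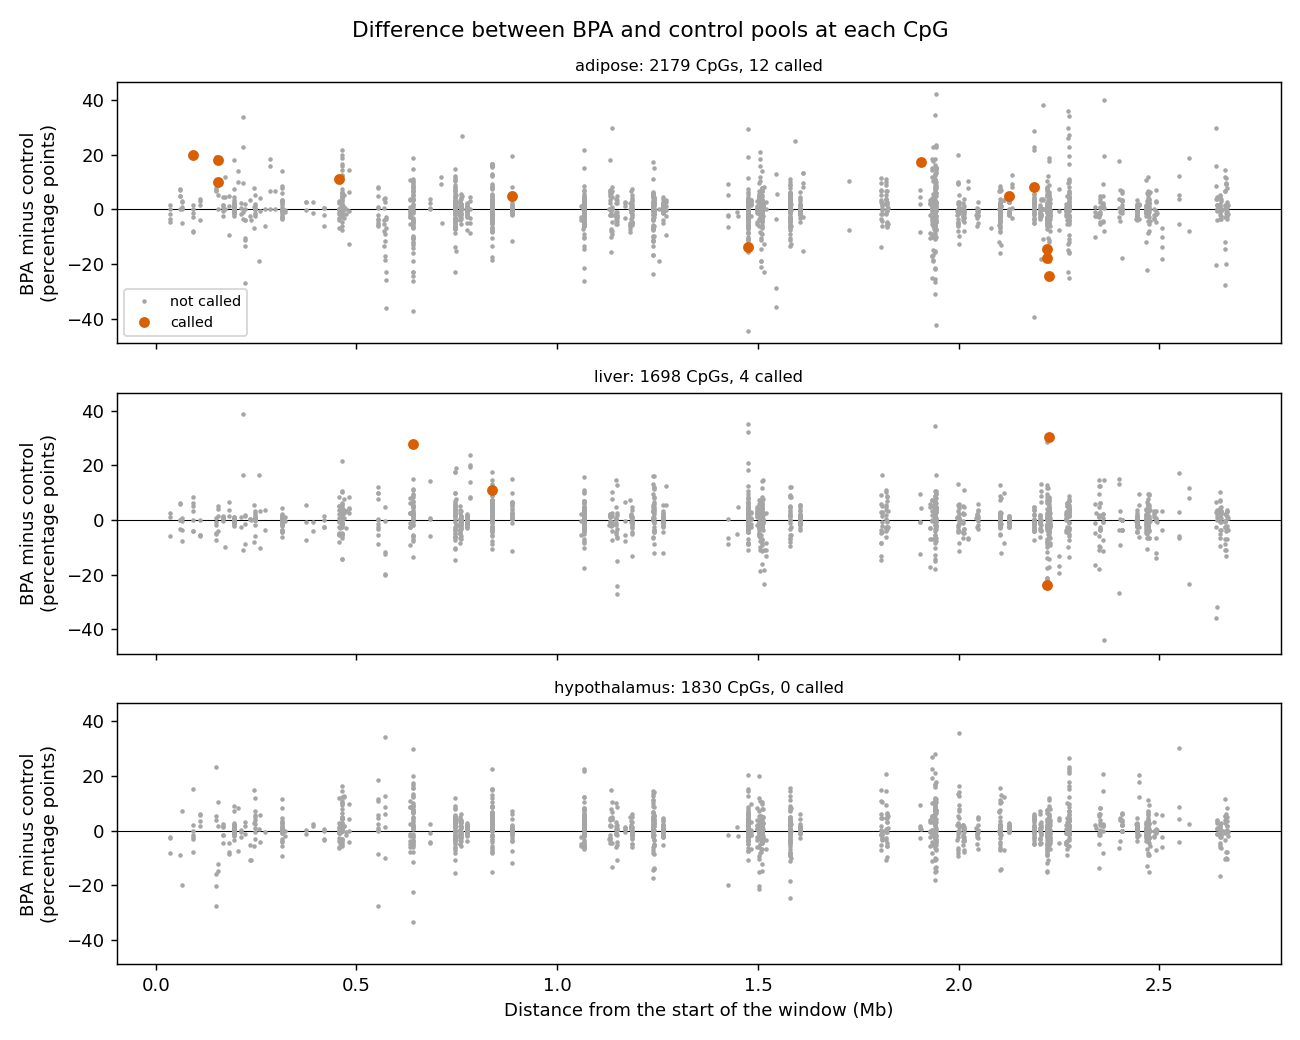
Difference in methylation, BPA minus control, in percentage points (vertical axis) at every cluster CpG against distance from the window start in Mb (horizontal axis), with a panel per tissue and called CpGs as large points. Adipose has 12 large points, liver 4 and hypothalamus none, and they lie among grey points, the CpGs not called, some of which have larger differences.

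Zfp978 held both CpGs that were called in more than 1 tissue. At 147219345 the level was 68.7% of 227 reads in BPA adipose and 86.3% of 183 reads in control adipose, 60.7% of 173 reads in BPA liver and 84.4% of 147 reads in control liver, and 73.8% and 88.9%, of 126 reads each, in BPA and control hypothalamus. All BPA pools lay below all control pools at this site. The differences were −17.6 points in adipose (interval −25.2 to −9.55, adjusted p = 0.0174, Fisher's exact test), −23.7 in liver (−32.6 to −14.0, adjusted p = 0.013, Fisher's exact test) and −15.1 in hypothalamus (−24.5 to −5.48, not called). The neighbouring CpG at 147219332 moved alike: 77.3% of 238 reads in BPA adipose and 91.7% of 181 reads in control adipose, 73.0% and 90.5% in liver, and 75.4% and 90.3% in hypothalamus. It was called in adipose, not in liver or hypothalamus (adjusted p = 0.0234 by Fisher's exact test, against 0.108 in liver). The Wald test of a difference in effect gave an adjusted p of 1 for each pair of tissues at both sites. The CpG between them, 147219337, had 84.0% in BPA adipose and 89.5% in control adipose, and was not called. None of the 14 other CpGs within 150 bp of 147219345 was called in adipose, liver or hypothalamus by Fisher's exact test. Their median difference was −0.3 points in adipose, −2.25 in liver and −1.7 in hypothalamus.

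A CpG farther along Zfp978, at 147225001, moved in opposite directions. In adipose it had 43.5% of 147 reads in the BPA pool and 67.7% of 127 reads in the control pool, a difference of −24.2 points (interval −35.0 to −12.4, adjusted p = 0.0289, Fisher's exact test). In liver it had 77.4% of 84 reads in the BPA pool and 46.9% of 113 reads in the control pool, a difference of 30.5 points (16.9 to 42.2, adjusted p = 0.0493, Fisher's exact test). The liver call was lost at a minimum of 5 reads and without the deepest 0.1% or 1% of sites. In hypothalamus it had 68.1% of 72 reads and 65.0% of 60 reads, in the same order. The control pools of adipose and liver thus differed as well, with intervals of 58.8% to 75.7% and 37.5% to 56.5%. The Wald test of the difference between the effects in adipose and liver gave an adjusted p of 6.81e-05 over all CpGs. This CpG was the only one of 1690 cluster CpGs called for that pair, where 0.0493% of all CpGs were called. Treatment differences had led to the choice of the region, so the Wald test is given as a description. No cluster CpG was called in that test between adipose and hypothalamus (1822 CpGs, background 0.0266%) or between liver and hypothalamus (1616 CpGs, background 0.00375%), where 112 and 69 had an unadjusted Wald p under 0.05. The CpGs within 150 bp had medians between 93.8% and 97.3% in the BPA pools and between 95.6% and 96.2% in the control pools, and none of them was called. Among them 147224892 was also lower than its neighbours, with 68.6% in BPA adipose and 70.9% in control adipose, and 62.0% and 76.3% in liver.

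**Figure D5:**
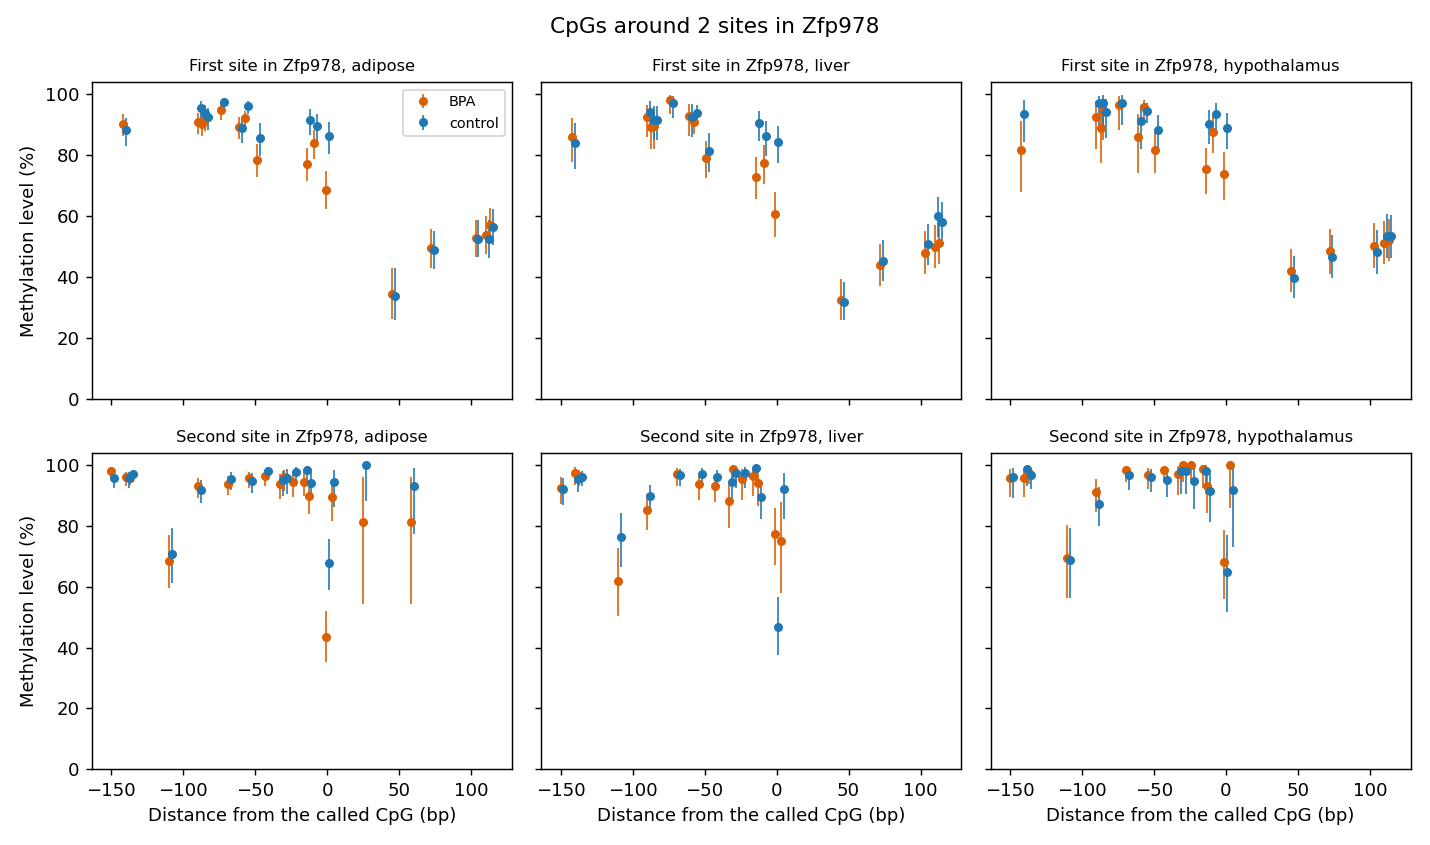
Methylation level in percent (vertical axis) of CpGs within 150 bp of 2 sites in Zfp978, by distance from the site in bp (horizontal axis), for BPA (orange, left of each pair) and control (blue) pools in each tissue, with exact 95% intervals as bars. At the first site, 147219345, BPA lies below control in all tissues, and at the second, 147225001, BPA is lower in adipose (43.5% against 67.7%) and higher in liver (77.4% against 46.9%).

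The other called CpGs were called in 1 tissue each. In adipose Vps13d held 3 that were higher in the BPA pool: 145091871 (91.2% of 204 reads in BPA, 71.2% of 153 reads in control, difference 20.0 points), 145154360 (94.0% and 75.9%, 18.1 points) and 145154647 (100% of 118 reads and 90.1% of 131 reads, 9.9 points). Within 5 kb of the pseudogene Gm13223, 145457342 had 97.8% in BPA adipose and 86.7% in control adipose. In Zfp993, 146906667 had 66.2% of 234 reads in BPA adipose and 49.0% of 210 reads in control adipose, a difference of 17.2 points. In Gm13146, inside Zfp978, 147187791 had 53.1% of 1180 reads and 45.0% of 1031 reads, in the same order of pools. In Gm13241, 146475263 was lower, with 48.3% of 503 reads in BPA adipose and 62.1% of 427 reads in control adipose. The 2 smallest differences were 5.1 points at 147124861, just below the lower end of the Zfp978 model, and 5.0 points at 145886173, over 5 kb from any gene model, with 95.4% of 764 reads in BPA adipose and 90.4% of 758 reads in control adipose. The last falls outside the rule for naming CpGs and completes the count. The calls at 147187791, 147124861 and 145886173 were lost at a minimum of 10 points and without the deepest 1% of sites.

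In liver, 145641048 in Gm13231 had 65.2% of 135 reads in the BPA pool and 37.5% of 128 reads in the control pool, a difference of 27.7 points (interval 15.7 to 38.6, adjusted p = 0.0278, Fisher's exact test). The same CpG had 37.4% in BPA adipose and 44.0% in control adipose, and 41.9% in BPA hypothalamus and 53.3% in control hypothalamus, and neither of these differences was called. The Wald test between adipose and liver gave an adjusted p of 0.0565 there. In Gm13238, 145837230 had 52.6% of 808 reads in BPA liver and 41.7% of 1025 reads in control liver, 10.9 points higher (adjusted p = 0.0142, Fisher's exact test), with 62.4% and 62.3% in hypothalamus. Both lie in models that share their CpG spacing with another, and without such models 2 of the 4 liver calls remained.

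The deepest CpGs of the cluster lie at the lower end of the Zfp978 model. At 147124861 there were 2103 reads in BPA adipose and 1710 in control adipose, with levels of 22.4% and 17.3%. Liver had 16.3% and 18.0%, and hypothalamus 12.5% in both pools. The other 2 deepest, 147124887 and 147124906, had 16.3% and 15.6% in BPA adipose against 13.1% and 12.1% in control adipose, 11.9% and 11.1% in both BPA and control liver, and 9.86% and 8.11% in BPA hypothalamus against 9.09% and 8.63% in control hypothalamus. The stretch from 147124819 to 147125069 held 22 of the 70 CpGs with at least 500 reads in every pool. Its mean was 12.3% in BPA adipose and 10.6% in control adipose, 10.6% and 10.9% in liver, and 8.73% and 7.97% in hypothalamus. Other such stretches lay at Gm13238 (16 CpGs, 145837116 to 145837291) and Gm13241 (13 CpGs, 146475317 to 146475462), both models of repeated CpG spacing.

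Averaged over all its CpGs, the cluster shifted little between BPA and control. The mean difference was 0.196 points in adipose, 0.29 in liver and 0.978 in hypothalamus, where all tested CpGs had −0.151, −0.0471 and 0.0695. Up to the end of Tnfrsf8 it was 1.64, 0.0772 and −0.0989, and past it 0.0826, 0.309 and 1.05, in the same order of tissues. In hypothalamus 1027 CpGs were higher and 679 lower in the BPA pool (56.1% higher, against 48.2% of all CpGs), and 26 of the 33 gene models were higher. The other zinc finger clusters gave 0.576 points (chromosome 13) and −0.429 points (chromosome 2) in hypothalamus. Of the gene models, Gm46895 had 78.7% in BPA hypothalamus and 69.5% in control hypothalamus over 12 CpGs with a median of 44.5 reads in the control pool, and Smarca5-ps had 22.5% in BPA adipose and 15.7% in control adipose over 23 CpGs, but no CpG in either was called. The 3 hypothalamus CpGs with the smallest p-values all lay in Gm13241, inside Vmn2r-ps16, led by 146475288 with 70.4% of 412 reads in BPA and 55.1% of 343 reads in control (15.3 points, adjusted p = 0.0695, Fisher's exact test), followed by 146475112 (66.3% and 51.8%) and 146475005 (86.7% and 66.2%). In adipose the first had 67.1% in BPA and 69.0% in control, and in liver 57.1% and 57.7%. CpGs of 1 pool share reads and animals, so the mean differences carry no test.

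The genes whose products act with KRAB zinc finger proteins were looked at in the same tables. Of 23 such genes, all were matched, and 5 had a called CpG in the gene body or within 5 kb in adipose: Uhrf1, a reader of hemimethylated DNA, with 1 higher in BPA, Dnmt3a, a de novo DNA methyltransferase, with 2 lower, and Pphln1, a subunit of the HUSH silencing complex, Daxx, a histone H3.3 chaperone, and Zfp57, a KRAB zinc finger protein that guards imprints, with 1 lower each. In liver Dnmt3a had 1 called lower and no other gene of the list had any, and in hypothalamus there was none by Fisher's exact test. Trim28 and Setdb1 had no called CpG in adipose, liver or hypothalamus, with 82 and 78 CpGs tested in adipose. Over the CpGs of the whole list, 6 of 2571 were called in adipose (0.233%, below the background of 0.535% of all CpGs), 1 of 2191 in liver (0.0456%, background 0.0259%) and 0 of 2187 in hypothalamus by Fisher's exact test.

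The tissue labels were checked with marker genes, whose bodies tend to be less methylated where they are active. Of the hepatocyte markers 4 of the 4 measured (Fgb, Alb, Ttr and Serpina1a) were lowest in control liver, Alb on 1 CpG only, and Apoa1 had no measured CpG in its body. Of the adipocyte markers 4 of 5 were lowest in control adipose, all but Cidec, and of the neuron markers 4 of 5 were lowest in control hypothalamus, all but Rbfox3, though several differed by only a few points. These lists were not set against the cluster, and the part of cell mix in its tissue differences was not tested.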

How the data were processed

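RRBS libraries of 18 samples (3 tissues, BPA and control, 3 each) were aligned with BSMAP to GRCm38 (mm10), per the submitters' processing notes. Its version is not stated in the labels. The authors deposited 1 table per tissue, in which samples of a treatment are pooled. Per the file headers, each table gives the read counts covering each CpG, the methylation fraction of each pool, a difference, and a Fisher p-value, all made by the authors. Rows begin at 3 reads, and start positions count from 0, so positions printed here are those plus 1. Recomputing the deposited p-value from the deposited counts and fractions at 4954, 4972 and 4986 random CpGs of adipose, liver and hypothalamus gave the same value within rounding at 100% of them.

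Here, CpGs of the nuclear genome with at least 10 reads in each pool were kept, p-values were adjusted by the Benjamini-Hochberg method over each whole table, and a CpG was called at an adjusted p under 0.05 and at least 5 percentage points. Control pools of 2 tissues were tested alike with Fisher's exact test on all CpGs with at least 10 reads in both. Differences of effects between tissues were tested with a Wald test of log odds ratios with 0.5 added to each count. Levels have exact Clopper-Pearson and differences Newcombe 95% intervals. Gene models and sequences came from RefSeq (GRCm38.p6). Python 3.11.15, NumPy 2.4.6, pandas 2.3.3, SciPy 1.17.1 and numba 0.67.0 were used, and the tests were checked on simulated data.

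Members and lists were chosen with earlier results of these data known. Named gene models are Zfp978, those within 5 kb of a called CpG, the 10 with the most CpGs and the 5 with the largest difference per pair of tissues, with others given as examples of their kind. Named CpGs are all called ones where a tissue has 10 or fewer and otherwise the 10 with the largest difference. The 3 deepest are named too, as are the 3 with the largest difference per pair of tissues and direction. Of the latter, the leading one of each 3 and some others are printed. The alternatives tried changed the depth filter, the minimum difference, the adjustment, the deepest sites kept and the window.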

Additional observations from a re-analysis of the deposited data

Results flagged for a closer look

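The CpG at 147225001 in Zfp978 was set apart because its BPA effect differed between adipose and liver. The adjusted p was 6.81e-05 in the Wald test over all CpGs. It was 1 of 1690 cluster CpGs called in that test, where 0.0493% of all CpGs were called. Treatment differences in these data had led to the choice of the region, so the result is given as a description. The level was lower in BPA than in control adipose (43.5% against 67.7%) and higher in BPA than in control liver (77.4% against 46.9%), on between 84 and 147 reads per pool. The call in liver alone was lost at a minimum of 5 reads and without the deepest 0.1% or 1% of sites. Each pool joins 3 samples, and the part of single animals in the result was not tested.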

How the results depend on the processing

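No paired analysis was possible because the tables hold pools and no values of single samples. For the same reason no sample could be left out in turn. Counts of CpGs called between BPA and control changed most. The authors' credible difference of at least 5 points in place of the p-value gave 45 in adipose, 19 in liver and 16 in hypothalamus. Scaled p-values, Bonferroni adjustment and keeping CpGs within 1 kb of a gene start given in the promoter table each gave 0 in adipose and 0 in liver. Leaving out the deepest 1% of sites gave 2 in liver, as did leaving out models of repeated CpG spacing. Of the 16 single calls, 16 were kept at a depth minimum of 20 reads and 15 at 5 reads. A minimum of 10 points kept 12, the credible difference 13 and leaving out the deepest 1% of sites 11. The adipose calls at 145886173, 147124861 and 147187791 were lost at 10 points, by the credible difference and without the deepest 1%. The liver call at 147225001 was the one lost at 5 reads, and it was lost without the deepest 0.1% or 1% of sites too. The other alternatives kept the counts between BPA and control within 1.5 times. Mean differences between BPA and control became −0.0589 points in adipose and 1.67 in liver as shares of all reads, and −0.102 and −0.0984 within 1 kb of a gene start, which turned the sign in adipose both times and in liver near gene starts. The cause was not tested. Mean levels moved with how they were summarised. In adipose (BPA, then control) they were 57.1% and 57.1% as a share of all reads, 61.7% and 61.9% as medians, 56.3% and 56.1% over CpGs measured in all tissues, and 53.8% and 53.5% at 20 reads. In liver they were 52.3% and 50.6%, 63.9% and 63.5%, 53.4% and 53.1%, and 54.4% and 54.1%, in the same order, and in hypothalamus 51.5% and 50.6%, 64.6% and 61.6%, 56.7% and 55.7%, and 54.1% and 53.3%. Between control pools, a minimum of 20 points left 12 CpGs for adipose and hypothalamus (3 higher in adipose) and 43 for adipose and liver (32 higher in adipose). It left 25 for liver and hypothalamus (2 higher in liver). CpGs near gene starts gave 2, 11 and 5, of which 2, 10 and 3 were higher in the tissue named first. Without models of repeated CpG spacing there were 150 for adipose and liver (132 higher in adipose) and 105 for liver and hypothalamus (11 higher in liver). The share of all CpGs called under these settings was not computed, so the counts describe the cluster only. The BPA pools gave 87 for adipose and hypothalamus (4.67%, background 13.4%). The split at Tnfrsf8, the repeated spacing and the minimum of 20 reads for the Wald test and the silencing genes were added after the data were seen. The division of zinc finger models by other models was added then too. The median depth in hypothalamus was 92 reads per CpG in the BPA pool and 83 in the control pool, and the part of depth in its counts was not tested.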
